A study of Mus musculus with 6 samples.

Results

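The genes described here encode the presynaptic machinery that stores, docks and releases synaptic vesicles. They are 40 genes given by symbol, and 39 of them were measured by at least 1 probe set that pairs with a single gene symbol, out of 19938 genes measured in this way. Where a gene had several such probe sets, the brightest over the 6 arrays stood for it. The only member left out was Vamp2, a vesicle SNARE, whose probe set pairs with more than 1 symbol. The mice were wild type, of strain 129S6/SvEv and 8 to 12 weeks old, and both frontal cortices were dissected. The 3 SAHA libraries came from mice injected for 21 days with 20 mg per kg SAHA (vorinostat), an inhibitor of zinc-dependent histone deacetylases. The 3 saline libraries came from mice that received vehicle, saline in the sample titles, over the same period. Dissection followed 1 day after dosing ended in both groups, and each library was hybridised to 1 Affymetrix whole-transcript array. The labels do not say whether each library is 1 mouse, so the p-values measure only how these samples scatter, which may be technical variation.

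A nerve terminal releases transmitter when calcium enters through channels beside docked vesicles. Vesicles are filled by transporters, tethered by synapsins and Rab3 GTPases, docked and primed at the active zone by scaffolds of the RIM, ELKS, Bassoon and Piccolo families and by Munc13 proteins, and fused by the SNARE proteins SNAP-25, syntaxin and synaptobrevin. Synaptotagmins sense the calcium, complexins clamp and promote fusion, and NSF with its adaptor proteins takes the SNARE complex apart afterwards. In the cortex these genes are transcribed mainly in neurons, both excitatory and inhibitory, and several are paralogs used by different neuron types.

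The release machinery differed little between SAHA and saline cortex. No member passed the test over all genes: limma with Benjamini-Hochberg adjustment gave a lowest adjusted p of 0.243, for Rab3b, and it also called 0 of the 19938 genes. Without adjustment, 1 of 39 members (2.56%) had a p under 0.05, where 17.4% of all genes did, and 9.07% of genes in the same deciles of signal. In the lower direction that was 1 member, where 5.56% of all genes were called, and in the higher direction 0 members, where 11.9% were. These shares by direction are not matched for signal. In the brightest decile, which held 22 members, 17.4% of genes had a higher mean in SAHA, against 52.9% of all genes. The members' differences (SAHA minus saline, log2 signal) lay between -0.17 for Rab3b and 0.078 for Unc13a, with a median size, sign set aside, of 0.040, against 0.093 over all genes and 0.058 in the brightest decile. The 95% confidence interval of the fit lay within 0.3 log2 of 0, a 1.23-fold change, for 36 of 39 members and for 55% of all genes. It lay within 0.2 log2, or 1.15-fold, for 24 members and for 18.9% of all genes. These shares over all genes are not matched for signal. The median SE was 0.063 over the members and 0.062 in the brightest decile, against 0.077 over all genes. Sv2c, Rab3b and Syt5 were the members whose interval reached past 0.3. The lowest bound was -0.33 for Sv2c and the highest 0.27 for Vamp1. These intervals are those of the deposited scaling of the arrays, and they set no limit on shifts under another scaling. After median centring Rab3b was at -0.22 (SE 0.072) and Sv2c at -0.18 (SE 0.084), and after quantile normalization both were at -0.13.

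**Figure D1:**
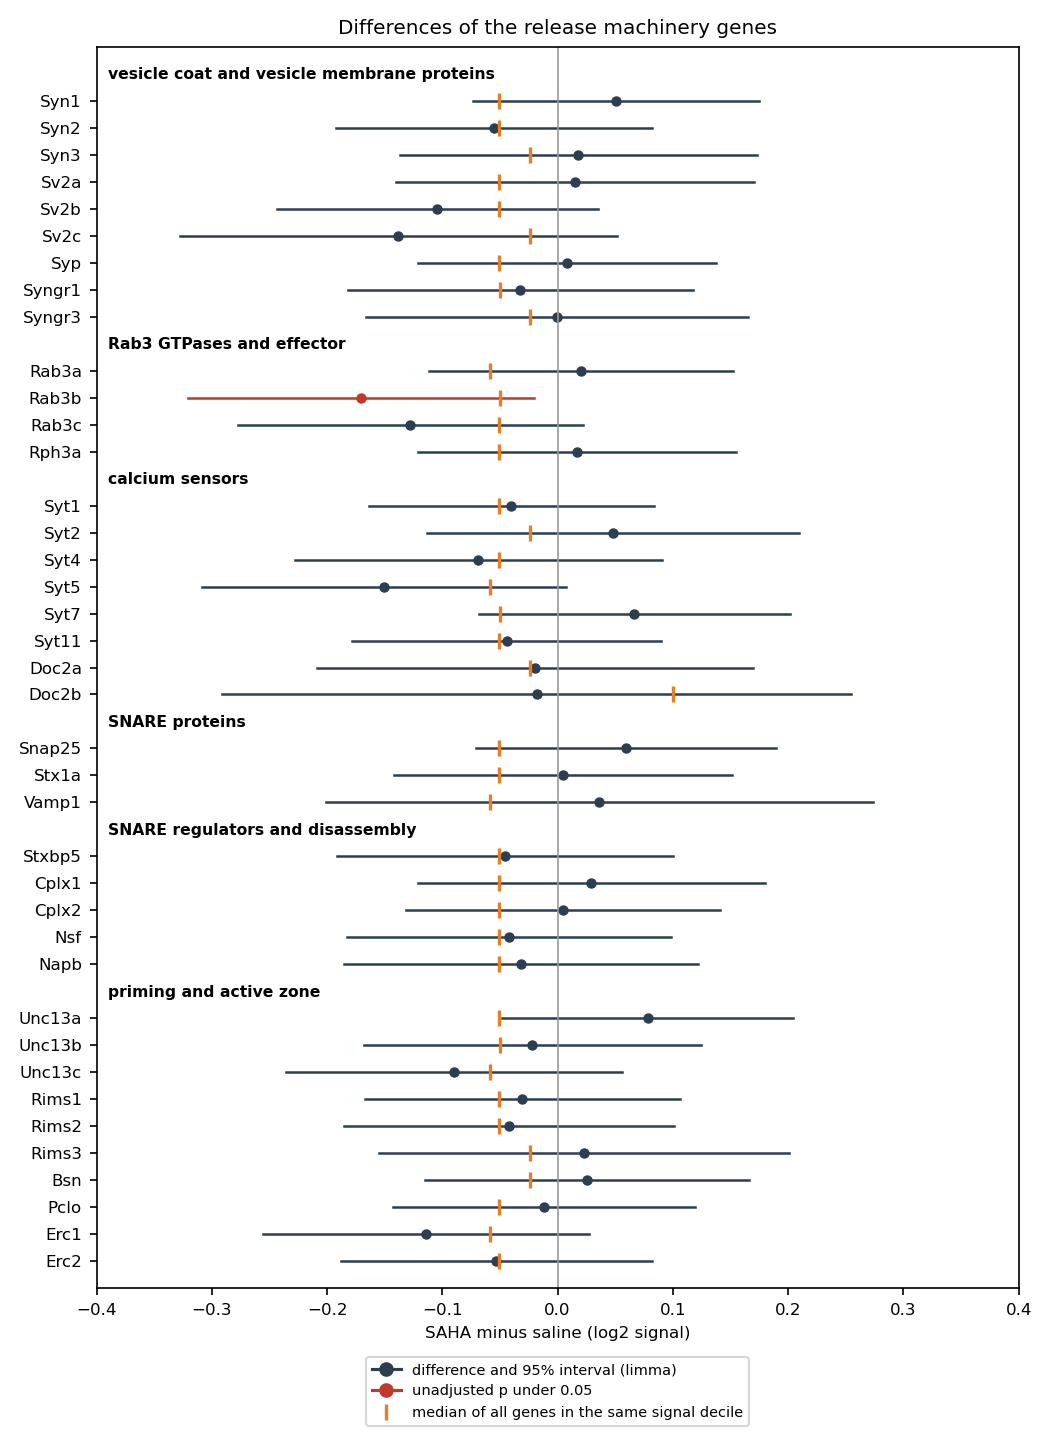
Difference between SAHA and saline (log2 signal, horizontal axis) for 39 release machinery genes grouped by role, as points with the 95% interval of the limma fit (3 libraries a group); orange ticks mark the median difference of all genes in the same decile of signal. The interval of Rab3b, in red, ends below 0, at -0.021, and the intervals of the other members include 0.

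The libraries had median signals between 6.72 and 6.75 in SAHA and between 6.66 and 6.71 in saline over all probe sets. In the SAHA libraries Xist, the RNA of the inactive X chromosome, lay between 4.63 and 4.86, against 10.9 in saline replicate 1 and 4.86 and 4.88 in saline replicates 2 and 3. The Y-linked gene Eif2s3y was at 7.80 in SAHA replicate 3 and at 9.18 and 9.24 in SAHA replicates 1 and 2, against 9.20 to 9.25 in the saline libraries. Without saline replicate 1 and SAHA replicate 3 together, the median difference of the members was -0.015, against -0.019 with all libraries. Markers of cortical excitatory neurons were present, with Slc17a7, the vesicular glutamate transporter of cortex, at a mean of 10.54 in SAHA and 10.43 in saline. Gad2, an enzyme that makes GABA, averaged 10.69 in SAHA and 10.66 in saline.

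Over all genes the difference varied with the signal of the probe set, and each member is set beside genes of its own decile of signal. Of the 39 members, 22 lay in the brightest decile of all genes, where the median difference over all genes was -0.051 and 17.4% of genes were higher in SAHA. Of the members 23 were lower, or 59.0%, where all genes gave 47.1% and genes of the same deciles 74.6%, and 16 were higher, where all genes gave 52.9%. Their median was -0.019, against 0.011 over all genes and -0.051 as the median of their deciles. Set against the median of its own decile, the difference was above it for 28 of 39 members, by a median of 0.021. In the single libraries the median over members, relative to the saline mean of each gene, was -0.043, -0.014 and -0.027 in SAHA replicates 1 to 3, against 0.013, 0.0013 and -0.013 in saline replicates 1 to 3. All 3 SAHA libraries lay below the 3 saline libraries in this measure, by a step smaller than the pooled SD of 0.014.

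**Figure D2:**
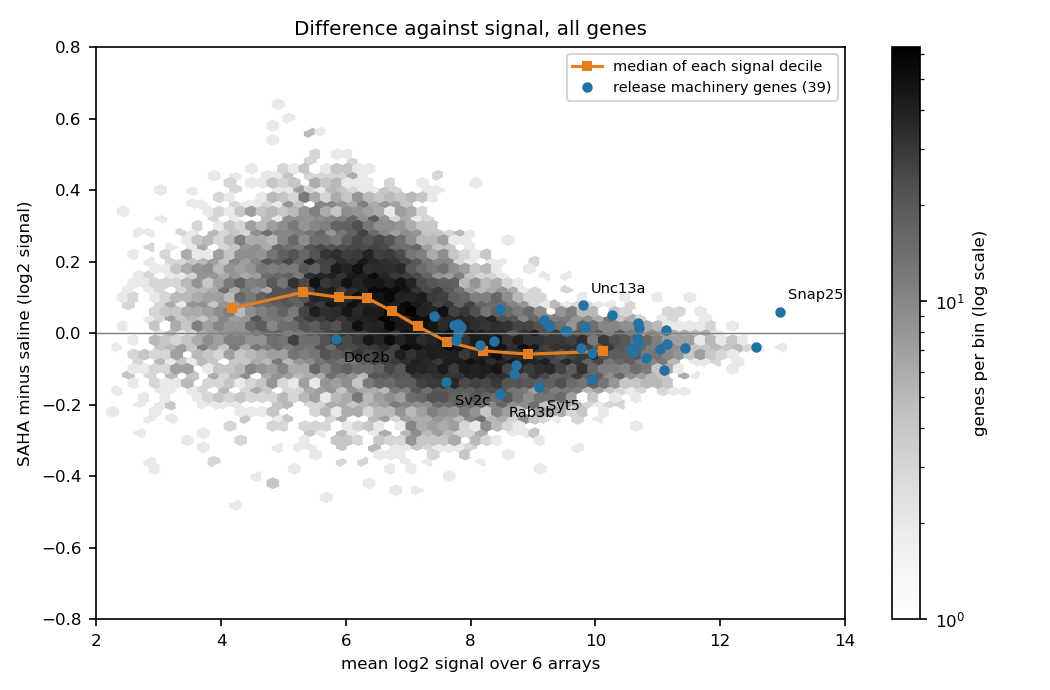
Difference between SAHA and saline (log2, vertical axis) against the mean signal over 6 arrays (log2, horizontal axis), with all genes as grey bins, the median of each decile of signal in orange and the 39 release machinery genes in blue. The decile medians are 0.069 in the dimmest decile, 0.11 in the next and -0.051 in the brightest, and 1 gene, Xist, lies outside the vertical range.

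Because the shift with signal depends on how arrays are scaled, each member was followed under 4 scalings. After median centring 34 of 39 members were lower in SAHA, where 59.5% of all genes were. After quantile normalization 25 members were higher, where 53.3% of all genes were, and after cyclic loess normalization 29 were higher, where 50.6% were. The median over the members was -0.065, 0.020 and 0.019 under these, where all genes had -0.035, 0.0098 and 0.0018. Of the members, 10 were lower under all 4 scalings (Sv2b, Sv2c, Rab3b, Rab3c, Syt4, Syt5, Doc2a, Doc2b, Unc13c and Erc1) and 5 were higher under all 4 (Syn1, Syt2, Syt7, Snap25 and Unc13a). With 1 library left out the sign turned for Doc2a (-0.076 to 0.043), Doc2b (-0.14 to 0.052) and Syt2 (-0.0026 to 0.083) among these 15 genes. For the remaining 24 genes, Syt1 among them, the sign turned with the scaling, and the values and counts of lower and higher members below are those of the deposited scaling.

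**Figure D3:**
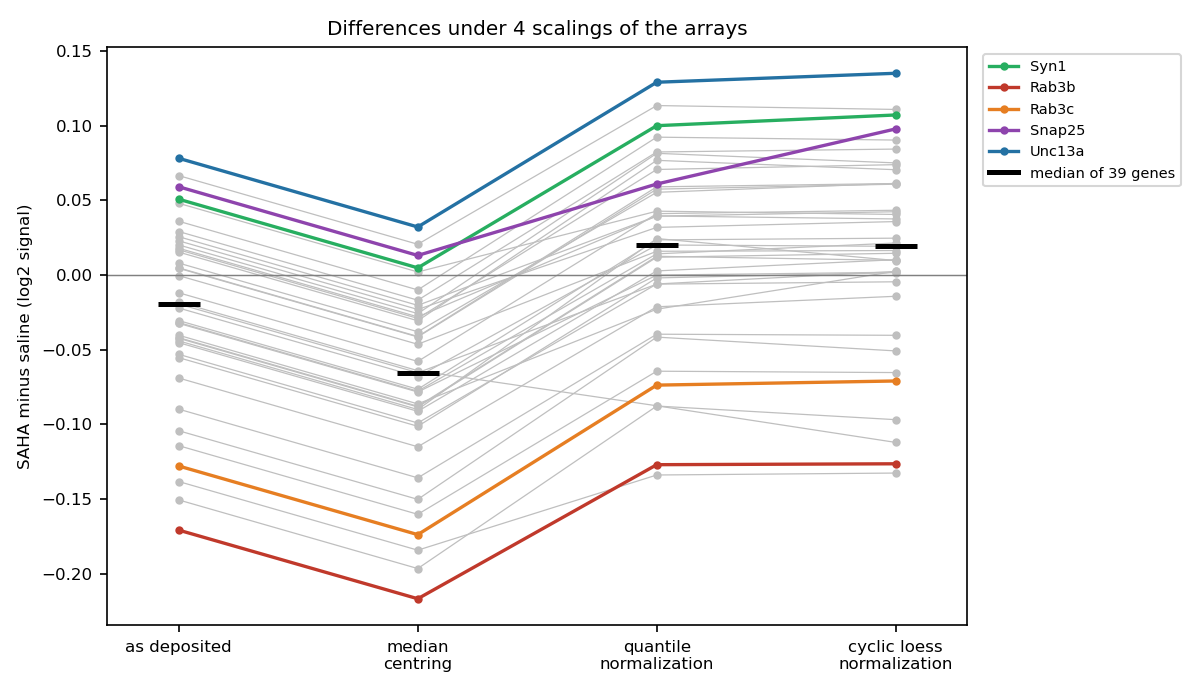
Difference between SAHA and saline (log2, vertical axis) of each of the 39 genes under the deposited values and 3 further scalings of the arrays (horizontal axis); lines join a gene, black bars mark the median. The median passes from -0.019 as deposited to -0.065, 0.020 and 0.019, while Rab3b and Rab3c stay below 0 and Unc13a, Syn1 and Snap25 stay above it.

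The Rab3 GTPases, which ride on vesicles and recruit tethering proteins, held the member of smallest p. Rab3b had log2 signals of 8.35, 8.48 and 8.35 in the SAHA libraries, against 8.53, 8.62 and 8.54 in the saline libraries. All 3 SAHA libraries lay below all 3 saline libraries, by at least 0.051. The difference was -0.17 (SE 0.065), a SAHA level 0.888 times that of saline, with an unadjusted p of 0.0307 and an adjusted p of 0.243 in limma. It was -0.22 after median centring and -0.13 after both quantile and cyclic loess normalization, and the groups still did not overlap. With 1 library left out it was between -0.21 and -0.14. Of these 6 fits without a library, 2 kept the unadjusted p under 0.05, those without SAHA replicate 2 and without saline replicate 1. Without saline replicate 1 and SAHA replicate 3 together it was -0.16. Rab3c, a paralog, had 9.88, 9.89 and 9.88 in SAHA, against 10.11, 9.95 and 9.96 in saline. The groups did not overlap, and the SAHA libraries were nearly equal. Its difference was -0.13 (SE 0.065), at an adjusted p of 0.344 in limma, and -0.076 without saline replicate 1, the library with the highest value, so that this library moved it by over 1.5 times. It was -0.17 after median centring, -0.074 after quantile and -0.071 after cyclic loess normalization, where the groups did not overlap. Rab3a, the most studied Rab3 of synaptic vesicles, had 9.20, 9.30 and 9.28 in SAHA, against 9.23, 9.25 and 9.24 in saline. The SAHA libraries lay on both sides of the saline libraries, and the difference was 0.020 (SE 0.057), at an adjusted p of 0.876 in limma. It was -0.026 after median centring, with overlapping groups. After quantile and cyclic loess normalization it was 0.081 and 0.075, and the SAHA libraries lay above the saline libraries. Rph3a, the Rab3 effector rabphilin, differed by 0.017 (SE 0.060). Differences between the 3 paralogs were not tested.

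**Figure D4:**
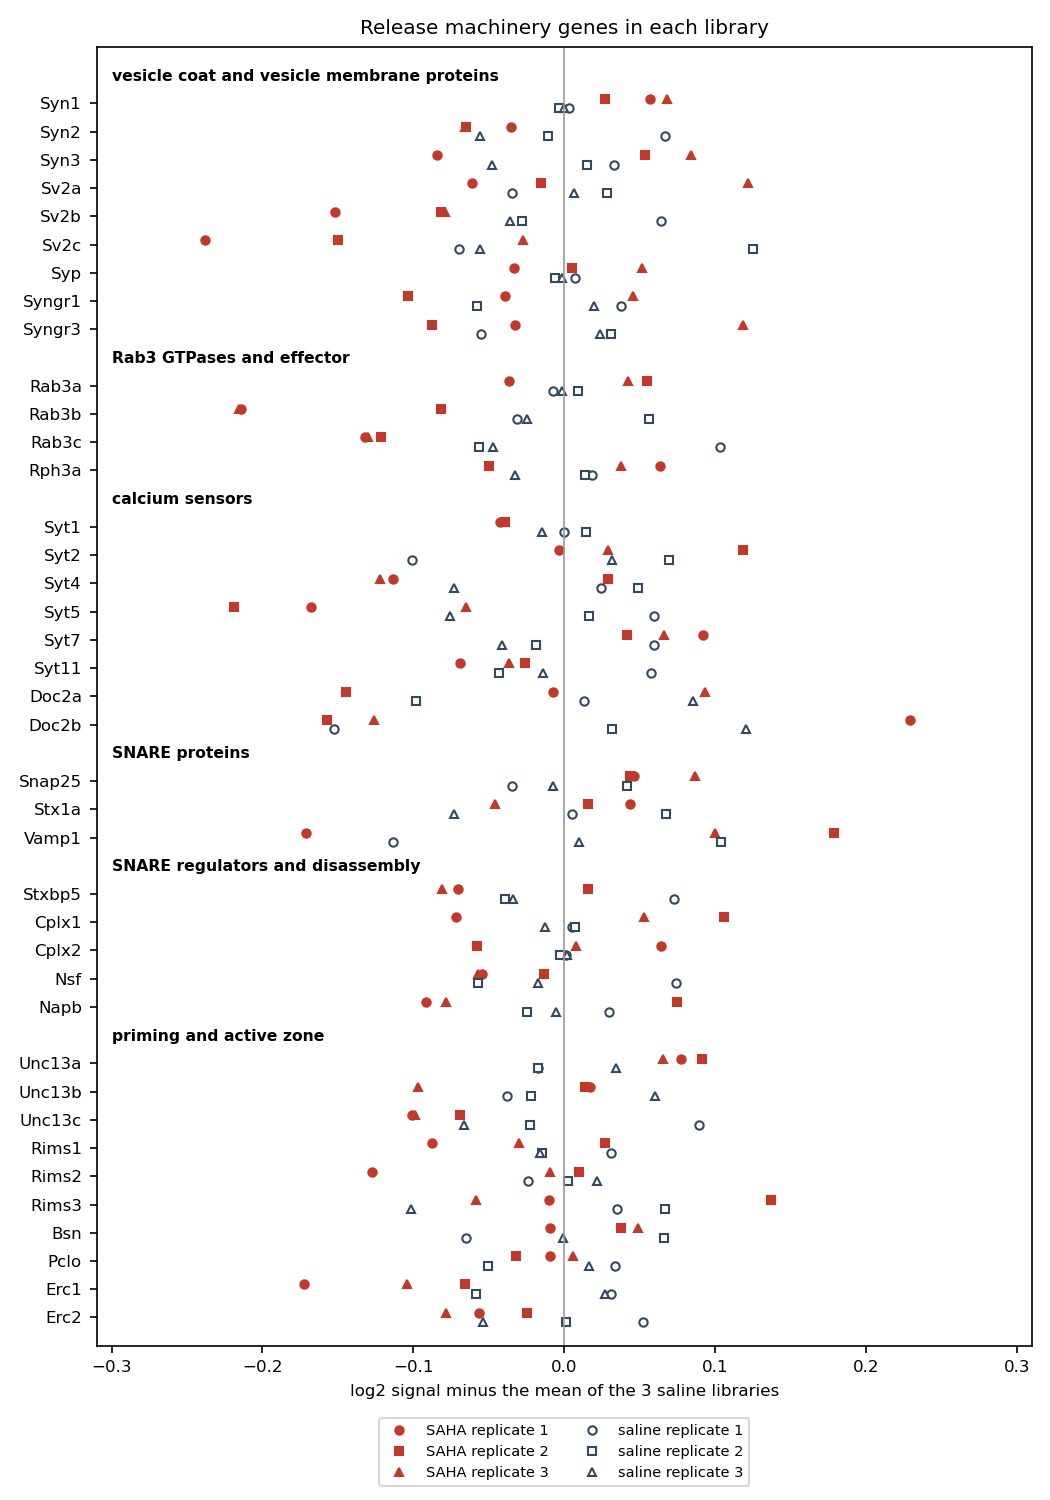
Log2 signal of each release machinery gene in each library, minus the mean of its 3 saline libraries (horizontal axis), with SAHA libraries as filled red symbols above and saline libraries as open symbols below; the symbol shape gives the replicate. For Rab3b and Rab3c the 3 SAHA libraries lie left of the 3 saline libraries, for Unc13a they lie right of them, and for most genes the groups interleave.

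The 250 bases before the start of these Rab3 genes, and of Unc13a and Syn1, are shown since these are the members whose groups stayed apart under 3 or more of the scalings, with Rab3a for comparison. They are RefSeq sequences of build GRCm38.p6, given 5′ to 3′ on the strand of the gene, and 30 of the 39 measured members matched the table. Capitals mark the letters of a motif on either strand. The motifs searched on both strands were the GC box of Sp1 family factors, GGGCGG. A further motif was the cAMP response element, TGACGTCA, and another the left part of the RE1 element bound by the repressor REST, TTCAGCACC. For the factor NRF1 the core of its element was searched, CGCATGCG. The E-box was searched as CACGTG. The TATA box was searched as TATAAA. A match is a run of letters, not a shown binding site, and among the printed windows matches of different motifs do not overlap.
Rab3b, chr4:108878820-108879069, plus strand: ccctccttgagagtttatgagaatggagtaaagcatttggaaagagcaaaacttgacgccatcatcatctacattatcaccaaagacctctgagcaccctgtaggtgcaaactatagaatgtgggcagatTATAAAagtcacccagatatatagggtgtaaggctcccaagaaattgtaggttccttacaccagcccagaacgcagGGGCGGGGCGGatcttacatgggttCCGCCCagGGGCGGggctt
Rab3c, chr13:110280207-110280456, minus strand: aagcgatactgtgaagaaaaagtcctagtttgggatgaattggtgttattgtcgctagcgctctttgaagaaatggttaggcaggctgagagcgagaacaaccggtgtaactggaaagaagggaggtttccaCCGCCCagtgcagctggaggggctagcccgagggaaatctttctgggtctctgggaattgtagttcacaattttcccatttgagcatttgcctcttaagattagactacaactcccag
Rab3a, chr8:70754453-70754702, plus strand, the upstream of 2 listed starts: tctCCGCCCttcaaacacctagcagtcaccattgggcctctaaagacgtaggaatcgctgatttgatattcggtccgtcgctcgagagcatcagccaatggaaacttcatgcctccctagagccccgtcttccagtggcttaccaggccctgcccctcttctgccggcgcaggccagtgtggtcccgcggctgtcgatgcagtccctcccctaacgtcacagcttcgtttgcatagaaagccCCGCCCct
Unc13a, chr8:71671758-71672007, minus strand: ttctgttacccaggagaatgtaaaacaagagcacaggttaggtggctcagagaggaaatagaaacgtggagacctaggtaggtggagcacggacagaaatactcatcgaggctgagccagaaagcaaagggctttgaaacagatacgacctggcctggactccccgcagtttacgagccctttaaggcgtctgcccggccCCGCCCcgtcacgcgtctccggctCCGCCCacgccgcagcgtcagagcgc
Syn1, chrX:20920919-20921168, minus strand: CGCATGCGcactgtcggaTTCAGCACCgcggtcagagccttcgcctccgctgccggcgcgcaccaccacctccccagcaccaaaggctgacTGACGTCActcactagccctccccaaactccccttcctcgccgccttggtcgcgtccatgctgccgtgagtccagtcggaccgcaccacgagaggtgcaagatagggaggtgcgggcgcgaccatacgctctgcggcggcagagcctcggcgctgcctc
The Rab3b window holds 4 GC box matches, 2 of which overlap, and a TATA box match that begins 120 bases before the start. The Rab3c window holds 1 GC box match, and the Unc13a and Rab3a windows hold 2 each. The Syn1 window holds no GC box match, but the letters of an NRF1 core, of the left part of an RE1 element and of a cAMP response element, which begin 250, 232 and 159 bases before the start. Among the 30 members with a window, 23 held the GC box in at least 1 of their windows (76.7%), where 35.4% of all genes with a window did. For the motifs, all genes are the 27025 genes with a RefSeq window, measured or not, rather than the 19938 measured genes. They are not matched to the members for expression in cortex or for windows per gene. The 30 members had 39 windows, and the 27025 genes had 32851. The cAMP response element and the left part of RE1 were each in 1 member, Syn1, and in 1.77% and 0.348% of all genes. The NRF1 core was in 3 members (Syn1, Stxbp5 and Bsn) and in 1.75% of all genes. The E-box was in 3 members (Sv2b, Nsf and Unc13b) and in 6.86% of all genes, and the TATA box in 2 members (Sv2b and Rab3b) and in 14.3%.

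The priming and active zone genes were 10, of which 7 were lower and 3 higher in the deposited values, with a median of -0.026, against 0.011 over all genes. Among genes of the same deciles 75.3% were lower. Unc13a, which encodes Munc13-1, the protein that opens syntaxin and primes vesicles at most cortical synapses, had 9.84, 9.85 and 9.82 in SAHA, against 9.74, 9.74 and 9.79 in saline. All SAHA libraries lay above all saline libraries, by at least 0.031. The difference was 0.078 (SE 0.055), a SAHA level 1.06 times that of saline, at an adjusted p of 0.475 in limma, and it was 0.032 after median centring, 0.13 after quantile and 0.14 after cyclic loess normalization, at adjusted p of 0.783, 0.367 and 0.354 in limma. The gene has 3 probe sets, and the other two differed by 0.038 and 0.040, with overlapping groups. Unc13c, a Munc13 paralog known mainly from cerebellum, had 8.68, 8.71 and 8.68 in SAHA, against 8.87, 8.75 and 8.71 in saline. The groups were apart by 0.0026, and saline replicate 1 was the highest library. Its difference was -0.090 (SE 0.063), at an adjusted p of 0.476 in limma, and -0.045 without saline replicate 1, a move of over 1.5 times. It was -0.14 after median centring, with groups still apart, and -0.040 after both quantile and cyclic loess normalization, where the groups overlapped. All 7 of its probe sets were lower in SAHA, with differences from -0.45 to -0.0062, and 2 of them had groups that did not overlap, the dimmer of these at a mean signal of 3.68. Unc13b, the paralog Munc13-2, differed by -0.022 (SE 0.063).

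Erc1 and Erc2 encode ELKS scaffolds that bind RIM proteins. Erc1 had 8.58, 8.69 and 8.65 in SAHA, against 8.79, 8.70 and 8.78 in saline. The groups were apart by 0.0074, with SAHA replicate 2 and saline replicate 2 nearly equal. The difference was -0.11 (SE 0.061), at an adjusted p of 0.363 in limma. It was -0.16 after median centring, with groups still apart. After quantile and cyclic loess normalization it was -0.064 and -0.065, with overlapping groups. The 2 dimmer probe sets of the gene differed by -0.0085 and 0.028. Erc2 differed by -0.053 (SE 0.058), with overlapping groups. The RIM genes Rims1, Rims2 and Rims3, whose products link Rab3, Munc13 and calcium channels, differed by -0.030, -0.042 and 0.023, and the giant scaffolds Bsn (Bassoon) and Pclo (Piccolo) by 0.026 and -0.012. Each of these 5 had overlapping groups, and the interval reaching farthest from 0 among them ended at 0.20, for Rims3.

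The calcium sensors were 8, of which 6 were lower (75.0%, where genes of the same deciles gave 66.8%) and 2 higher in the deposited values, with a median of -0.030. Syt1, the fast calcium sensor of cortical synapses, had 12.55 in all 3 SAHA libraries, against 12.59, 12.61 and 12.58 in saline. The groups did not overlap, but the difference was only -0.040 (SE 0.053), at an adjusted p of 0.715 in limma. That SE draws on the variance of all genes. A plain two-sample test gave Syt1 an SE of 0.0086, an unadjusted p of 0.00924 and an adjusted p of 0.276. The difference was -0.086 after median centring and 0.0025 after cyclic loess normalization, so its sign turned. Syt5, found on dense-core vesicles, had 9.00, 8.95 and 9.11 in SAHA, against 9.23, 9.19 and 9.10 in saline. SAHA replicate 3 lay above saline replicate 3, and the other SAHA libraries lay below the saline range. The difference was -0.15 (SE 0.068), at an unadjusted p of 0.0591 and an adjusted p of 0.305 in limma. It was -0.20 after median centring, where the groups did not overlap. After quantile and cyclic loess normalization it was -0.088 and -0.097, with overlapping groups. Syt7, a sensor for slow and asynchronous release, had 8.53, 8.48 and 8.51 in SAHA, against 8.50, 8.42 and 8.40 in saline. SAHA replicate 2 lay below saline replicate 1, so the groups overlapped. Its difference was 0.067 (SE 0.058), at an adjusted p of 0.570 in limma, and 0.11 after both quantile and cyclic loess normalization, where the groups did not overlap, and 0.021 after median centring. Syt4, an activity-induced synaptotagmin that does not trigger fast release, had 10.73, 10.87 and 10.72 in SAHA, against 10.87, 10.89 and 10.77 in saline. SAHA replicate 2 lay within the saline range, and the difference was -0.069 (SE 0.069), at an adjusted p of 0.619 in limma. Leaving out SAHA replicate 2 gave -0.12 and leaving out saline replicate 3 gave -0.11, while leaving out SAHA replicate 3, SAHA replicate 1 or saline replicate 2 gave -0.042, -0.047 and -0.045. The difference was -0.11 after median centring and -0.014 after cyclic loess normalization. Syt11, which binds no calcium, differed by -0.044 (SE 0.058), Doc2a by -0.019 (SE 0.082) and Doc2b, the dimmest member at a mean signal of 5.84, by -0.018 (SE 0.12). The Doc2 proteins are high-affinity calcium sensors for spontaneous release. For Doc2b the value of SAHA replicate 1 was 6.08 and those of the other SAHA libraries 5.69 and 5.72, against 5.69 to 5.97 in saline, and its SE was the highest of the members.

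All 3 measured SNARE genes had higher values in SAHA under the deposited scaling, with a median of 0.036. Of all genes 52.9% were higher, and of genes in the same deciles 81.0% were lower. After median centring Stx1a was at -0.041, Vamp1 at -0.010 and Snap25 at 0.013. After quantile normalization they were at 0.057, 0.092 and 0.061, and after cyclic loess normalization at 0.061, 0.090 and 0.098. None of the 3 had an unadjusted p under 0.05 in limma, where 17.4% of all genes and 7.09% of genes in the same deciles did. Snap25, the plasma membrane SNARE, had 12.97, 12.97 and 13.01 in SAHA, against 12.89, 12.97 and 12.92 in saline. The SAHA libraries lay above the saline libraries, by 0.0019 at the nearest pair. The difference was 0.059 (SE 0.056), at an adjusted p of 0.603 in limma, and 0.013 after median centring, where the groups overlapped. The Snap25 groups also overlapped after cyclic loess normalization, but not after quantile normalization. Stx1a, syntaxin 1A, had 9.55, 9.52 and 9.46 in SAHA, against 9.51, 9.57 and 9.43 in saline. The groups interleaved, and the difference was 0.0045 (SE 0.063), at an adjusted p of 0.977 in limma. Vamp1, synaptobrevin 1, had 8.98, 9.33 and 9.26 in SAHA, against 9.04, 9.26 and 9.17 in saline, a difference of 0.036 (SE 0.10). Its spread within each group was wider than the difference, and replicate 1 was the lowest library of both groups. Syt2, which like Vamp1 is abundant in terminals of parvalbumin interneurons, had 7.39, 7.51 and 7.42 in SAHA, against 7.29, 7.46 and 7.42 in saline, again with replicate 1 lowest and replicate 2 highest in both groups. Pvalb itself, which marks those interneurons, had 9.33, 9.55 and 9.40 in SAHA, against 9.50, 9.59 and 9.50 in saline, with replicate 2 highest in both groups. Whether the number of such interneurons in the dissections differed was not tested, and in whole tissue fewer cells of a type and less RNA per cell cannot be told apart.

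Complexins and the enzymes that recycle SNARE complexes also showed small differences. Cplx1 and Cplx2 differed by 0.029 (SE 0.065) and 0.0048 (SE 0.059). Stxbp5, or tomosyn, which competes with synaptobrevin and restrains release, differed by -0.045 (SE 0.063). Nsf, the ATPase that separates SNARE complexes, and its neuronal adaptor Napb (beta-SNAP) differed by -0.042 (SE 0.061) and -0.032 (SE 0.066). All 5 had overlapping groups, and adjusted p in limma lay between 0.731 and 0.974.

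Proteins of the vesicle surface were 9 genes, 5 of them lower and 4 higher in the deposited values, with a median of -0.00041. That is 55.6% lower, where genes of the same deciles gave 72.8%. Syn1, an X-linked synapsin that clusters vesicles, had 10.30, 10.27 and 10.31 in SAHA, against 10.25, 10.24 and 10.24 in saline. The SAHA libraries lay above the saline libraries by at least 0.024. The difference was 0.051 (SE 0.054), at an adjusted p of 0.642 in limma, and 0.044 without saline replicate 1 and SAHA replicate 3. Median centring gave 0.0048, with overlapping groups, quantile normalization 0.10 and cyclic loess normalization 0.11. Syp, or synaptophysin, also X-linked, had 11.09, 11.13 and 11.18 in SAHA, against 11.13, 11.12 and 11.12 in saline. The SAHA libraries lay on both sides of the saline libraries, and the difference was 0.0080 (SE 0.056), at an adjusted p of 0.953 in limma, and -0.010 without those 2 libraries. Syn2 and Syn3 differed by -0.055 (SE 0.059) and 0.018 (SE 0.067), and the synaptogyrins Syngr1 and Syngr3, relatives of synaptophysin, by -0.032 (SE 0.065) and -0.00041 (SE 0.072).

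The SV2 glycoproteins are vesicle proteins that bind synaptotagmin. Sv2b had 11.00, 11.07 and 11.07 in SAHA, against 11.22, 11.12 and 11.12 in saline. The groups were apart by 0.043, and saline replicate 1 was highest. The difference was -0.10 (SE 0.060), at an adjusted p of 0.398 in limma, and -0.15 after median centring, with groups still apart. It was -0.042 after quantile and -0.051 after cyclic loess normalization, where the groups overlapped. Sv2c had 7.44, 7.53 and 7.65 in SAHA, against 7.61, 7.80 and 7.62 in saline. SAHA replicate 3 lay within the saline range, and the difference was -0.14 (SE 0.082), at an adjusted p of 0.409 in limma. It was -0.076 without saline replicate 2, the highest library, -0.088 without SAHA replicate 1, the lowest, and -0.23 without saline replicate 1 and SAHA replicate 3. Sv2c is rich in the basal ganglia, and the summed linear signal of the 8 measured markers of striatal neurons ranged from 2054 to 2714 in SAHA and from 2212 to 2768 in saline. The part of tissue boundaries in the Sv2c value was not tested. Sv2a, the form found in most neurons, differed by 0.015 (SE 0.067). The differences between these paralogs were not tested.

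Over all members, the groups did not overlap for 9 of 39. In the lower direction these were 6 (Sv2b, Rab3b, Rab3c, Syt1, Unc13c and Erc1), where 10.4% of all genes were apart in that direction. In the higher direction they were 3 (Syn1, Snap25 and Unc13a), where 13.6% of all genes were. The direction of a difference varied with signal, and in the brightest decile, which held 22 members, 17.4% of genes were higher in SAHA. Shares of groups apart among genes of the same deciles were not counted, so those over all genes are no matched background. After quantile normalization 2 members were apart and lower (Rab3b and Rab3c), where 8.95% of all genes were. Apart and higher were 5 (Syn1, Rab3a, Syt7, Snap25 and Unc13a), where 11.3% of all genes were. After cyclic loess normalization these counts were again 2 and 5, where 9.72% and 10.1% of all genes were apart. The higher members then included Syp in place of Snap25. Median centring gave 10 apart and lower, where 17.2% of all genes were, and 1 apart and higher, Unc13a, where 8.37% were. Members lower at an unadjusted p under 0.05 numbered 4 after median centring (Rab3b, Rab3c, Syt5 and Erc1), where 10.6% of all genes were lower at that p. They numbered 0 after quantile normalization, where 5.66% of all genes were, and 0 after cyclic loess normalization, where 6.46% were. Unc13a was the 1 member higher at that p after cyclic loess normalization, where 6.82% of all genes were. With a variance trend in limma 4 members were lower at that p, where 8.63% of all genes were, and over the genes of higher signal alone 3 were, where 13.2% were.

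The other genes of the vesicle cycle were counted from lists of pathway genes. Of 122 such genes measured of 131 listed, 80 were lower and 42 higher in SAHA, with a median of -0.028, against 0.011 over all genes, and 0 passed the limma test over all genes. Genes of the same deciles were lower in 70.9% of cases, against 65.6% of these genes. An unadjusted p under 0.05 was reached by 2 lower and 3 higher genes, or 4.10%, where 17.4% of all genes and 10.6% of genes in the same deciles reached it. Further release factors, among them liprins, Rab3 regulators and other synaptotagmins, had 31 of 49 lower, or 63.3%, where genes of the same deciles gave 66.6%. The 2 of smallest p were Unc13d (Munc13-4), known from immune cell granules, at 0.21 (SE 0.083), and Snap29, a widely expressed SNAP-25 relative, at -0.17 (SE 0.072). Genes of vesicle endocytosis, such as dynamins, clathrin and AP-2 subunits, had 23 of 29 lower, or 79.3%, where genes of the same deciles gave 76.1%. Subunits of the vesicular proton pump, which energises filling, had 13 of 15 lower, or 86.7%, where genes of the same deciles gave 82.0%, and Atp6v1c1 differed by -0.19 (SE 0.063). The medians of these lists were -0.054 and -0.046, and after quantile normalization -0.00087 and -0.011.

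Vesicular transporters had 2 of 8 genes lower, or 25.0%, against 44.0% of genes in their deciles. Slc18a3, which loads acetylcholine, had 6.41, 6.58 and 6.39 in SAHA, against 6.18, 5.99 and 6.19 in saline, with all SAHA libraries above the saline libraries. The difference was 0.34 (SE 0.083), at an unadjusted p of 0.00377 and an adjusted p of 0.143 in limma, and 0.27 after quantile normalization. Slc17a9, a vesicular nucleotide transporter, had 5.96, 5.56 and 5.63 in SAHA, against 5.24, 5.45 and 5.39 in saline, a difference of 0.36 (SE 0.11), at an adjusted p of 0.188 in limma. Both probe sets lay below the median signal of all genes, 6.94, where most genes were higher in SAHA. Slc17a7 and Slc32a1, the transporters of glutamate and GABA in cortical terminals, differed by 0.11 (SE 0.060) and 0.085 (SE 0.059). Their adjusted p in limma was 0.385 and 0.471. The SAHA libraries lay above the saline libraries for both, but for Slc32a1 the nearest pair was 8.207 and 8.198. Of the 8 transporters 4 had groups apart and higher, where 13.6% of all genes did. Presynaptic calcium channel subunits had 4 of 9 lower, or 44.4%, where genes of the same deciles gave 73.0%, with a median of 0.015, and Cacna1a, the pore of the P/Q-type channel, differed by 0.079 (SE 0.064). Presynaptic adhesion genes, among them neurexins, had 7 of 12 lower, or 58.3%, where genes of the same deciles gave 77.8%, with a median of -0.0073. No gene of these last 2 lists had an unadjusted p under 0.05, where 17.4% of all genes did, and 10.2% and 8.57% of genes in the deciles of the channel and adhesion lists.

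Markers of the cells in the dissection are given beside these values. The summed linear signal of 9 excitatory neuron markers ranged from 10653 to 10886 in SAHA and from 10644 to 10889 in saline, and that of 11 interneuron markers from 6963 to 7210 in SAHA and from 6830 to 7157 in saline. For 8 parvalbumin interneuron markers it ranged from 2774 to 2939 in SAHA and from 2966 to 3032 in saline, without overlap between these sums. By gene, 5 of the 8 markers had a negative difference, a share of 62.5%, against 66.4% in their deciles of signal. The markers with a positive difference were Lhx6 (0.18, SE 0.062), Kcns3 (0.089, SE 0.063) and Cox6a2 (0.098, SE 0.066). Groups were apart and higher for Lhx6 and Kcns3, and apart and lower for 0 markers. Tac1, the marker with the lowest difference, is a neuropeptide gene that other cortical and striatal neurons also express. It differed by -0.43 (SE 0.13), at an adjusted p of 0.188 in limma and with overlapping groups. For 11 astrocyte markers the range was 11009 to 11346 in SAHA and 10720 to 11026 in saline. For 10 oligodendrocyte markers it was 4560 to 6055 in SAHA and 5307 to 5439 in saline, so the SAHA libraries spanned the saline range. The 39 release machinery genes summed to between 48763 and 50124 in SAHA and between 49586 and 50666 in saline. The part of cell makeup in the members' differences was not tested.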

How the data were processed

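The deposited table holds 1 log2 value per probe set and array. Per the submitters' processing notes, the authors used Affymetrix Expression Console and RMA, with no version named; genome build and scan batches are not given in the sources used here. RNA amplification and biotin labelling came first, as the labels' protocols state. Of 35556 probe sets, 21789 pair with 1 symbol, 1621 with several and 12146 with none. RMA normalises between arrays, but the medians of the deposited values still differed between libraries. The number of arrays limits the precision.

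Differences are SAHA minus saline from a two-sided linear model fit with moderated variance (limma 3.58.1, R 4.3.3) over 19938 genes without a block, with p-values adjusted by Benjamini-Hochberg over all genes. Normalizations used all probe sets. Deciles are those of mean signal over all genes. Values in every library are given for the 12 members of smallest p and for core genes; pathway lists name the 2 members of smallest p under 0.05, and other genes named were chosen after their values were seen. Members and lists were chosen with earlier results of these data known. Over all genes the deviations of same-numbered libraries had correlations of -0.10, -0.079 and 0.015. With 3 libraries a group these cannot show whether the numbers pair libraries by batch or dissection. Columns left unused were 0. Alternatives were other scalings, a filter on dim genes, the mean of probe sets, a variance trend, array weights, a block, a plain test and libraries left out.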

Additional observations from a re-analysis of the deposited data

How the results depend on the processing

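Over all 18 settings 0 members passed an adjusted p of 0.05, and the lowest adjusted p of a member was 0.158, for Rab3b with a variance trend. The number of genes called by limma over all genes was 0, but 27 over the genes whose signal reached the median, 28 with a variance trend, 31 with a robust trend, 1 with a plain two-sample test and 1592 at an adjusted p under 0.2. Members lower at an unadjusted p under 0.05 numbered 1, and 4 after median centring or with either variance trend, 3 over those brighter genes, 2 with the mean of probe sets or a plain test, and 0 after quantile or cyclic loess normalization, without saline replicate 1 and SAHA replicate 3 together, or at p under 0.01. With 1 library left out they numbered 0 to 1. Members higher at that p numbered 0, and 1 after cyclic loess (Unc13a) and 2 with a plain test. Members with groups apart and lower numbered 6, and 10 after median centring or without both libraries, 2 after quantile or cyclic loess normalization, and 6 to 11 with 1 library left out. Those apart and higher numbered 3, and 1 after median centring, 5 after quantile or cyclic loess normalization, and 3 to 6 with 1 library left out. The median over the members, -0.019, was -0.065 after median centring, 0.020 after quantile and 0.019 after cyclic loess normalization, and -0.034 to -0.013 with 1 library left out; the cause was not tested. With the replicate number as a block the counts stayed at 1, 0, 6 and 3, and the lowest adjusted p was 0.312, for Rab3b. Of the single members' values under all alternatives, 613 stayed within 1 SD of the replicates and 49 moved further, without a call. Many of the 613 could not move. Both variance trends, the block, the plain test and the filter on dim genes leave the differences unchanged. Of 39 members, 13 moved after median centring, 15 after quantile and 17 after cyclic loess normalization. With the mean of probe sets 3 moved, the only members with several probe sets. Without both libraries 1 moved, and with array weights or 1 library left out all 39 stayed.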
